A study of Mus musculus with 79 samples.

Results

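The scaffold proteins of the excitatory postsynaptic density were followed through 9 genes: Dlg1, Dlg2, Dlg3, Dlg4, Dlgap1, Shank1, Shank2, Shank3 and Homer1. They were taken by gene symbol from a table of 38879 genes, in which 10 rows carried these 9 symbols. RNA came from 4 kinds of neuron of the mouse medial prefrontal cortex, pyramidal neurons (PYR) and 3 classes of interneuron, known by parvalbumin (PV), by somatostatin (SST) and by vasoactive intestinal peptide (VIP). Male C57Bl/6J mice had either gone through unpredictable chronic mild stress (UCMS, a changing series of stressors such as wet bedding, a tilted cage, restraint or the odor of a predator, over 5 weeks) or served as controls. Behavioural tests fell in the last weeks, while the stressors went on. UCMS mice lived alone and controls with littermates, so stress and housing cannot be told apart in any comparison of the arms. Cells were found in frozen sections with RNAscope probes and captured with a laser, each library from 130 of them. The 79 libraries came from 20 mice, and a mouse number names the same animal in every type. Each type had 10 UCMS and 10 control libraries, except PV neurons, with 9 UCMS libraries, since mouse U609 had none.

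The excitatory postsynaptic density is a sheet of proteins beneath the receptors of glutamatergic synapses. The PSD-95 family of membrane-associated guanylate kinases, made by the Dlg genes, tethers NMDA receptors and the auxiliary proteins of AMPA receptors. The product of Dlgap1 links that family to the Shank proteins, which in turn bind Homer and so reach metabotropic glutamate receptors and the actin cytoskeleton. Homer1 makes long forms that assemble into multimers and a short form, induced by activity, that does not. The table held 1 value per gene, so these forms were not separated.

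All 9 genes were detected in every library, with at least 101 reads each, and all 9 passed the filter on low values in every comparison. In the GENCODE M21 annotation of GRCm38 all lie on the plus strand and are protein-coding. Dlg1 spans chr16:31663443-31875129, Dlg2 chr7:90476672-92449247, Dlg3 chrX:100767722-100818410 and Dlg4 chr11:70016942-70047522. Dlgap1 spans chr17:69969073-70821413, Shank1 chr7:44310253-44360572, Shank2 chr7:144001928-144424494, Shank3 chr15:89499623-89560261 and Homer1 chr13:93299635-93405129. The second row with the symbol Dlg2, under the identifier ENSMUSG00000108872, is not in that annotation. It stood at 0 in 7 libraries and passed no test, and it was kept apart from the main Dlg2 row. Exons of Dlg2 overlap those of Gm45131 and Gm45159 on the same strand. Exons of Shank1 overlap 1700008O03Rik, those of Shank3 overlap Gm15609 and those of Dlgap1 overlap AC079441.1, each on the other strand. Whether counting used the strand is not given in the sources used here, so reads in these overlaps cannot be told apart.

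RefSeq promoter windows of GRCm38.p6, from 250 bases before to 50 after an annotated start, matched 7 of the 9 genes, in 17 windows; Shank1 and Shank2 had no entry. They were searched on both strands for the cyclic AMP response element TGACGTCA, for its half-site TGACG, read as CGTCA on the other strand, which also lies within the full element, and for the GC box GGGCGG, read as CCGCCC on the other strand. The full element was in 0 of the 17 windows, the half-site in 3 and the GC box in 5. Among 32851 windows of all genes, 1.79% held the full element, 20.8% the half-site and 35.7% the GC box. The 3 windows with a half-site are shown, chosen by that match and not by expression. The other windows of the same genes held no half-site. Nor did any window of Dlg1, Dlg2, Dlgap1 or Shank3. A link of these matches with expression was not tested. Capitals mark the half-sites, which are matches of letters only. The Homer1 window (chr13:93303507-93303806) held 3 half-sites, and the Dlg3 window (chrX:100774245-100774544) and the Dlg4 window (chr11:70023732-70024031) held 1 each. All are given on the plus strand.
Homer1: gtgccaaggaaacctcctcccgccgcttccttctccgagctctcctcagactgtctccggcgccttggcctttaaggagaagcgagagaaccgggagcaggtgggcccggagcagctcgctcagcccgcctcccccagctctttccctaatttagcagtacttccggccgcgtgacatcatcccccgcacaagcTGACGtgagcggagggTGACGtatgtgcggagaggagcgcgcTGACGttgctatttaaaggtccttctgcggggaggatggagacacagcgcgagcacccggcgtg
Dlg3: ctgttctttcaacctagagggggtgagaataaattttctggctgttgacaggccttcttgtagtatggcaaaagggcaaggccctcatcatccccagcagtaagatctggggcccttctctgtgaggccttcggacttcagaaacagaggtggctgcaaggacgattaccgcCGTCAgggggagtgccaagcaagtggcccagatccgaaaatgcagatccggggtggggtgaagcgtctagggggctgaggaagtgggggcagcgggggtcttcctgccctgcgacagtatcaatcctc
Dlg4: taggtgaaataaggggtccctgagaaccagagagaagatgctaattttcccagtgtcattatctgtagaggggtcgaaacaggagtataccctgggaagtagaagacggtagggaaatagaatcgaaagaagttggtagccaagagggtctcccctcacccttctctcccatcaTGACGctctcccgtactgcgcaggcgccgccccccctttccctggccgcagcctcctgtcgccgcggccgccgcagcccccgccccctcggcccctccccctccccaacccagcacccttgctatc

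Values are normalized counts, reads divided by a size factor per library, at 3642579 to 13529571 reads per library. Slc17a7, which encodes a vesicular glutamate transporter of cortical pyramidal neurons, averaged 12973 in UCMS and 14218 in control PYR libraries. Pyramidal transcripts were also present in interneuron libraries. The summed level of 7 pyramidal markers, none of them at 0 throughout a group, averaged 19197 in UCMS and 21093 in control PYR libraries. In UCMS mice the sum averaged 7676 in VIP, 5223 in SST and 4416 in PV libraries, and in control mice 7697, 5196 and 4468. Single interneuron libraries ranged from 2278 to 10651. The 7 astrocyte markers summed to 11377 on average in UCMS and 11136 in control VIP libraries, and to 6789.9 to 8722 in the other groups. With 130 cells captured per library, a difference in RNA per cell and a difference in the share of RNA from other cells cannot be told apart.

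**Figure D1:**
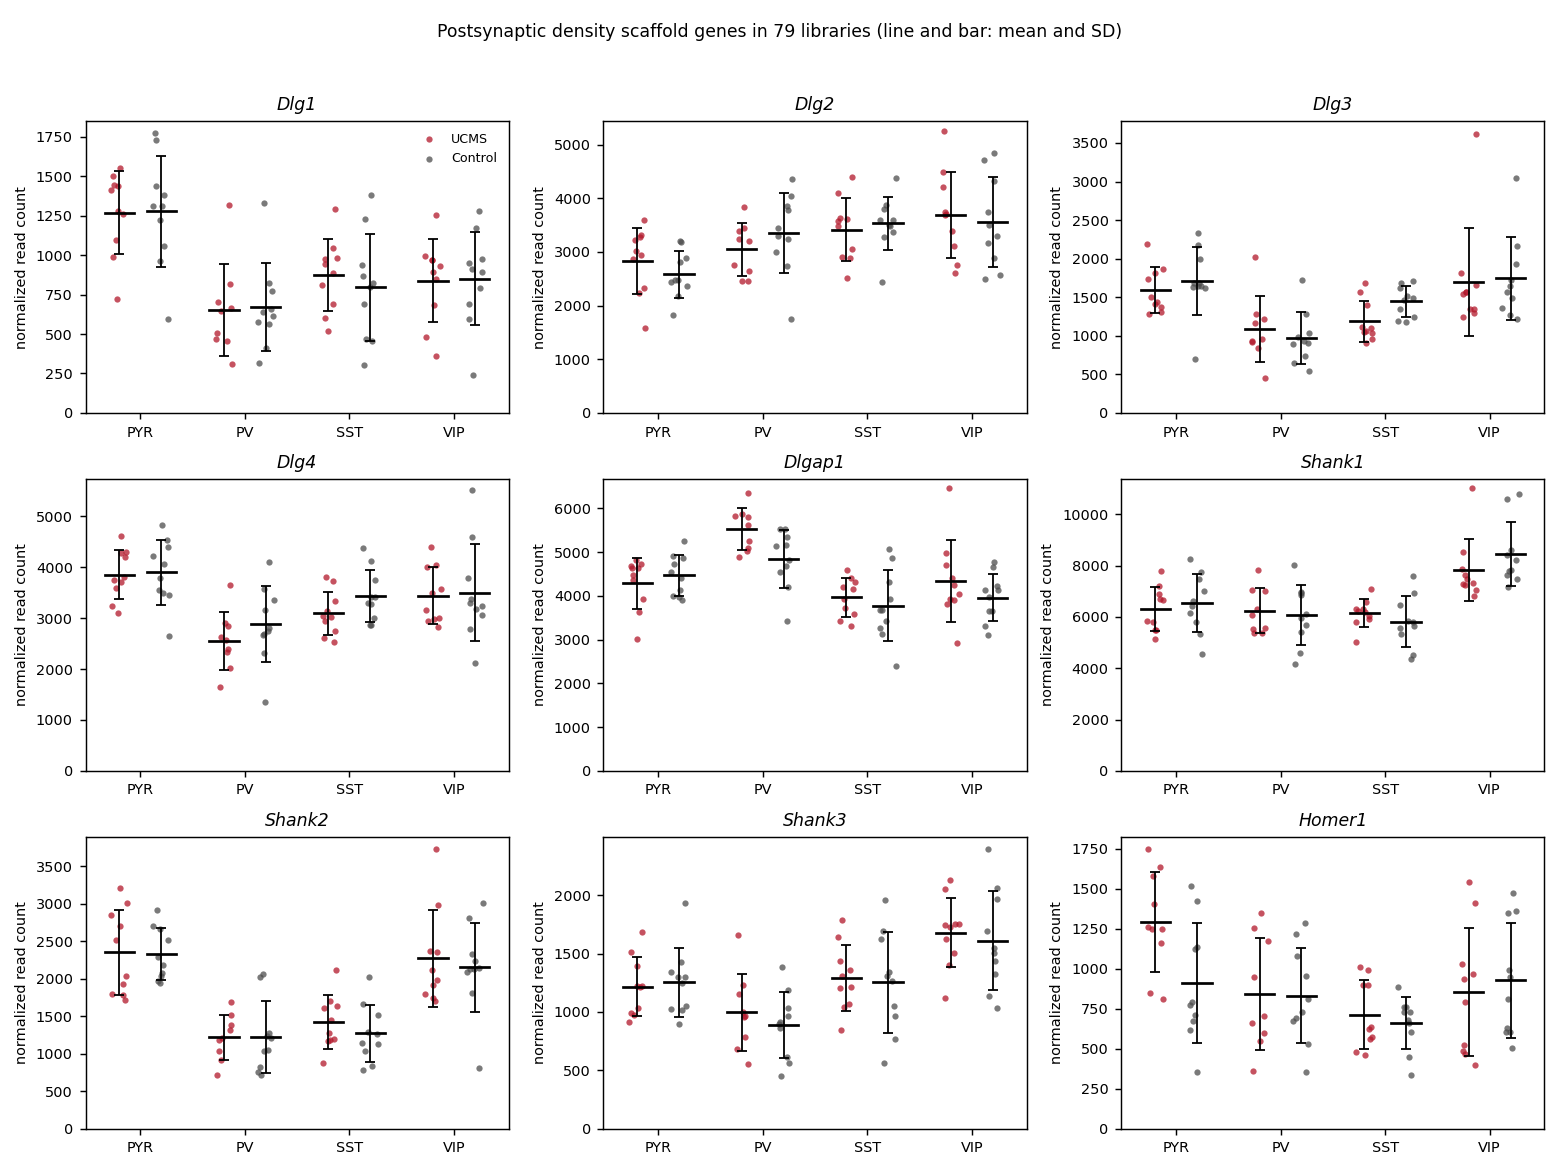
Normalized read counts of the 9 scaffold genes in each of the 79 libraries, by neuron type, with UCMS left of control and the mean and SD of 9 or 10 mice. For each gene the highest type mean is less than 2 times the lowest, and within every type the ranges of UCMS and control mice overlap.

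The first question was how the scaffolds are distributed over the 4 neuron types. Pairs of types were compared within mice, separately in UCMS and control animals, by limma on log2(normalized count + 4) with the mouse as a block and Benjamini-Hochberg adjustment over all genes. A call is an adjusted p under 0.05, and differences and their SEs are on the log2 scale, first type over second. Of 54 comparisons (9 genes in 6 pairs), 19 were called in UCMS mice and 14 in control mice. The lists shared 13 calls, 68.4% of those in UCMS mice and 92.9% of those in control mice, all with the same sign. Over all genes the share called per pair ran from 4.39% to 11.3% in UCMS mice and from 2.93% to 8.32% in control mice. The overlap between the arms was not computed over all genes. The highest type mean of a gene was 1.27 to 1.94 times the lowest in UCMS mice and 1.28 to 1.91 times in control mice. In both arms PV neurons had the lowest mean of Dlg1, Dlg3, Dlg4, Shank2 and Shank3, VIP neurons the highest of Dlg2, Dlg3, Shank1 and Shank3, and PYR neurons the highest of Dlg1, Dlg4 and Shank2.

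Against PV neurons, PYR neurons were higher for 5 and lower for 1 of the 9 genes in UCMS mice, where 11.3% of 17638 genes were called, 6.58% higher and 4.71% lower. They were higher for 4 and lower for 0 in control mice, where 8.32% of 17498 genes were called, 4.57% higher and 3.74% lower. Against SST neurons, PYR neurons were higher for 2 and lower for 0 in UCMS mice (all genes 6.26%, 2.98% higher and 3.28% lower). In control mice they were higher than SST neurons for 1 and lower for 1 (all genes 4.53%, 2.31% higher and 2.22% lower). Against VIP neurons, PYR neurons were higher for 0 and lower for 2, Dlg2 and Shank1, in UCMS mice (all genes 5.32%, 2.27% higher and 3.05% lower). The same 2 genes were lower and 0 higher in control mice (all genes 4.12%, 1.86% higher and 2.26% lower).

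Among the interneurons, PV over SST gave 1 higher and 0 lower in UCMS mice (all genes 5.24%, 2.11% higher and 3.13% lower) and 0 calls in control mice (all genes 3.68%, 1.81% higher and 1.87% lower). In that control comparison 4 of the 9 had an unadjusted p under 0.05 in limma, as had 2344 of all 17498 genes. There edgeR called 0 of the 9 and 402 of all genes, and DESeq2 2 of the 9 and 1812 of all genes. PV over VIP gave 1 higher and 5 lower in UCMS mice (all genes 11.0%, 4.48% higher and 6.50% lower) and 0 higher and 4 lower in control mice (all genes 6.83%, 3.27% higher and 3.55% lower). SST over VIP gave 0 higher and 2 lower in UCMS mice (all genes 4.39%, 2.01% higher and 2.38% lower) and 0 higher and 2 lower in control mice (all genes 2.93%, 1.39% higher and 1.54% lower). The median log2 fold change of the 9 genes for PYR over PV was 0.62 in UCMS mice and 0.47 in control mice, against 0.15 and 0.07 over all genes. For PYR over SST it was 0.32 and 0.20, against 0.02 and 0.05 over all genes. For PYR over VIP it was -0.003 and -0.03, against 3.3e-05 and 0.02 over all genes.

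**Figure D2:**
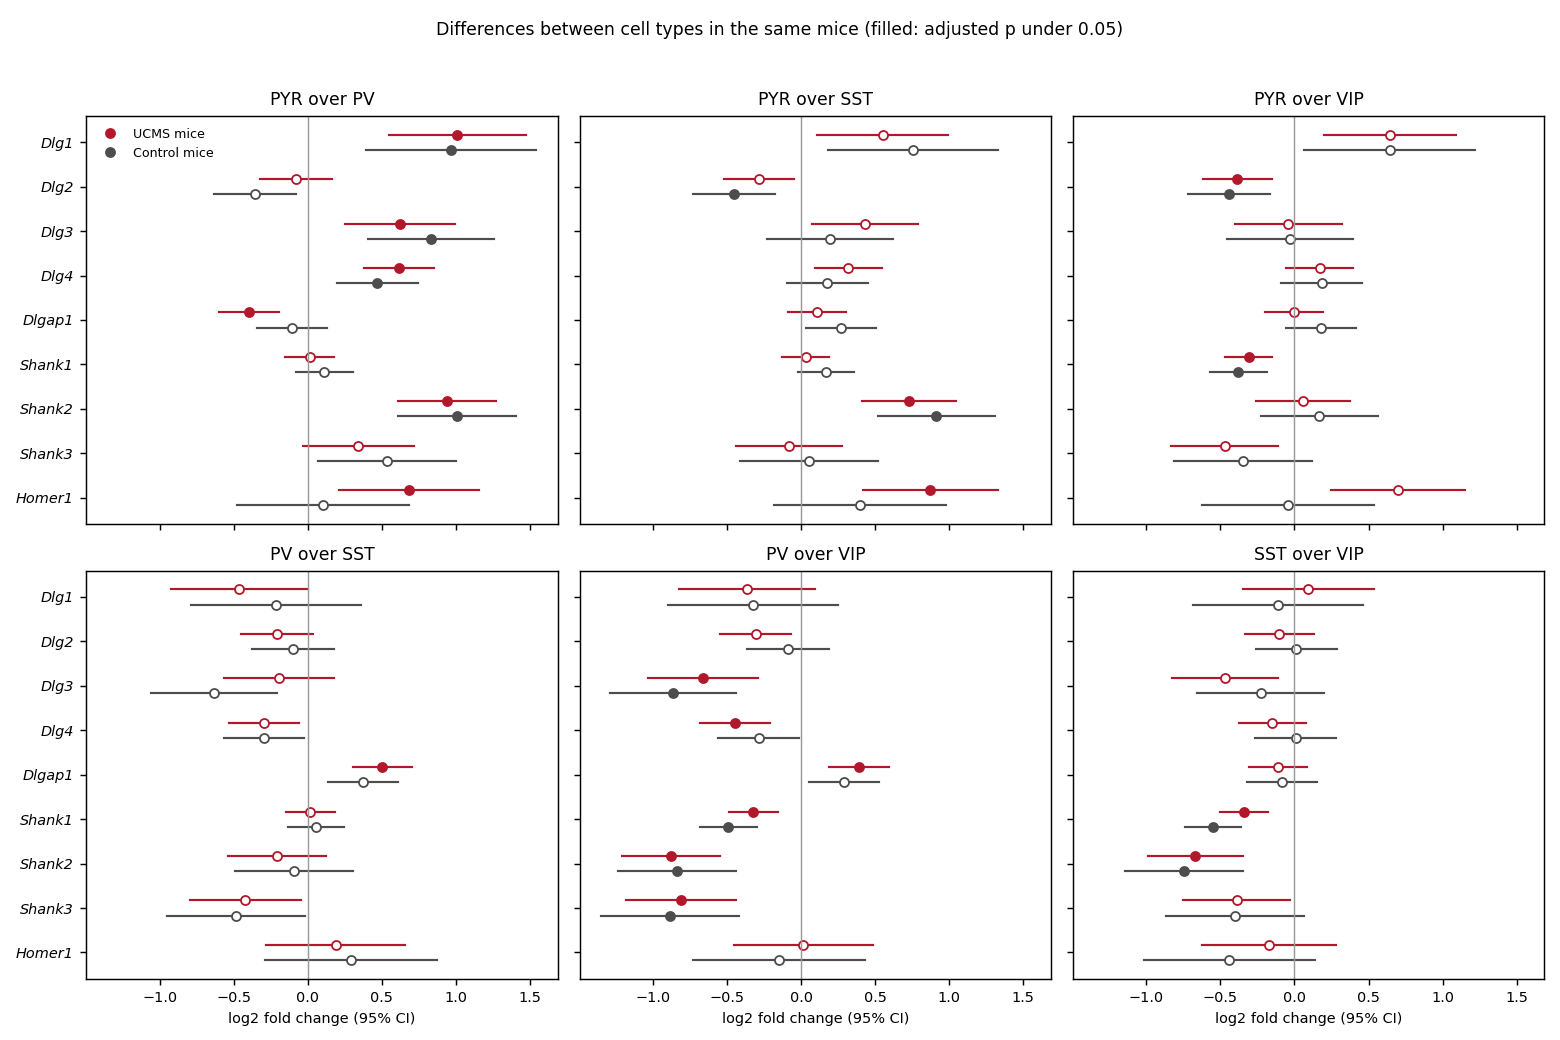
Log2 fold changes of the 9 genes for the 6 pairs of neuron types, first type over second, with 95% confidence intervals, in UCMS and in control mice. Filled points have an adjusted p under 0.05, and Shank2 lies right of 0 in PYR over PV and PYR over SST and left of 0 in PV over VIP and SST over VIP in both arms.

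Among the guanylate kinases, Dlg4 encodes PSD-95, a major scaffold of the mature density. In UCMS mice Dlg4 normalized counts ran from 3107 to 4607 in PYR libraries (median 3773), against 1645 to 3656 in PV libraries (median 2576). In control mice Dlg4 ran from 2649 to 4826 in PYR libraries (median 3927), against 1355 to 4109.7 in PV libraries (median 2780.0). PYR was the higher in 9 of 9 UCMS mice and 8 of 10 control mice, although the ranges overlapped in both arms. Dlg4 was higher in PYR than in PV neurons by 0.62 in UCMS mice (SE 0.120, adjusted p = 2.00e-05 in limma) and by 0.47 in control mice (SE 0.138, adjusted p = 0.0135). Without control mouse U2 the control difference was 0.35 and the call ended (adjusted p = 0.141), as it did with quantile normalization (0.0509) and with no filter (0.0944). PV was below VIP by 0.45 in UCMS mice (log2 fold change -0.45, SE 0.120, adjusted p = 0.00432), whereas the control value of -0.29 did not pass (adjusted p = 0.237). PYR over SST and PV over SST in UCMS mice were not called in the main limma fit. The first passed with DESeq2 (adjusted p = 0.0303) and with the protein-coding share as a covariate (0.0414), the second without U605 (0.0493). The order of the means, PYR, VIP, SST, PV, was the same for Dlg4, Shank2 and the summed pyramidal markers in both arms. The part of pyramidal transcripts in these differences was not tested.

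Dlg1 encodes SAP97, which takes part in the traffic of AMPA receptors. In UCMS mice Dlg1 normalized counts ran from 721 to 1555 in PYR libraries (median 1349), against 311 to 1320.2 in PV libraries (median 645). In control mice Dlg1 ran from 593 to 1773 in PYR libraries (median 1310.2), against 314 to 1334 in PV libraries (median 626). PYR was the higher in 8 of 9 UCMS mice and 9 of 10 control mice, with 1 PV library far above the rest in each arm and overlapping ranges. The difference was 1.01 in UCMS mice (SE 0.233, adjusted p = 0.000495 in limma) and 0.97 in control mice (SE 0.292, adjusted p = 0.0175). The control call ended without mouse U2, U5 or U8 (differences of 0.84 to 0.94, adjusted p from 0.0517 to 0.0781), with no filter (0.0628) and with the protein-coding share as a covariate (0.0698). PYR over SST stood at 0.55 in UCMS mice (adjusted p = 0.158) and 0.75 in control mice (adjusted p = 0.141), which did not pass. Without U608 in UCMS mice and without U4 in control mice the same differences passed (adjusted p = 0.0431 and 0.0418). PYR over VIP stood at 0.64 in UCMS mice (adjusted p = 0.0749) and 0.64 in control mice (adjusted p = 0.259), which did not pass either. The UCMS difference passed without U604 (adjusted p = 0.0464) and under 4 of 11 other settings, edgeR (0.0255) and DESeq2 (0.0256) among them. No call in limma separated the 3 interneuron types.

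Dlg3 encodes SAP102, a scaffold of NMDA receptors prominent at young synapses. In UCMS mice Dlg3 normalized counts ran from 1278 to 2188 in PYR libraries (median 1470.3) and 1241 to 3622 in VIP libraries (median 1555), against 456 to 2015 in PV libraries (median 963). In control mice Dlg3 ran from 694 to 2334 in PYR libraries (median 1663) and 1219.5 to 3046 in VIP libraries (median 1609.6), against 540.4 to 1719 in PV libraries (median 918). The PV median was the lowest in both arms and the ranges overlapped, with 7 of 9 UCMS and 9 of 10 control mice higher in PYR than in PV neurons. PYR exceeded PV by 0.62 in UCMS mice (SE 0.188, adjusted p = 0.0141 in limma) and by 0.83 in control mice (SE 0.216, adjusted p = 0.00365). PV was below VIP in UCMS mice (log2 fold change -0.66, SE 0.188, adjusted p = 0.00828) and in control mice (log2 fold change -0.86, SE 0.216, adjusted p = 0.00283). Without UCMS mouse U608 the PYR over PV difference was 0.42 and its call ended (adjusted p = 0.173), as it did with no filter (0.0548). The UCMS PV over VIP call ended without U601 or U608 (adjusted p from 0.0670 to 0.0819), with edgeR (0.0504) and with the protein-coding share as a covariate (0.110). Both control calls held in the 11 other settings and without any 1 mouse. PV over SST in control mice, -0.63, did not pass in limma (adjusted p = 0.0837). It passed with DESeq2 (adjusted p = 0.0101) and with a filter at a mean of 50 (0.0470).

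Dlg2 encodes PSD-93 and was the guanylate kinase with its lowest mean in PYR neurons. In UCMS mice Dlg2 normalized counts ran from 1585 to 3599 in PYR libraries (median 2979), against 2608 to 5252 in VIP libraries (median 3701). In control mice Dlg2 ran from 1823 to 3209.9 in PYR libraries (median 2482), against 2497 to 4839 in VIP libraries (median 3405) and 2448 to 4378 in SST libraries (median 3552). VIP was higher than PYR in 7 of 10 UCMS mice and 10 of 10 control mice, and the ranges overlapped. PYR was below VIP in UCMS mice (log2 fold change -0.39, SE 0.119, adjusted p = 0.0300 in limma) and in control mice (log2 fold change -0.44, SE 0.140, adjusted p = 0.0467). The UCMS call ended without U603, U605, U607, U608 or U609 (adjusted p from 0.0607 to 0.185) and under 4 of 11 other settings. The control call ended without U1, U2, U5, U6, U7, U8 or U9 (adjusted p from 0.0641 to 0.241) and under 6 of 11 other settings, of which 1 left out the mouse as a block (0.0539). PYR was also below SST in control mice (log2 fold change -0.45, SE 0.140, adjusted p = 0.0338), a call that ended without U2, U4, U6, U7 or U10 (adjusted p from 0.0550 to 0.144), with no filter (0.160) and with edgeR (0.134). The UCMS value of PYR over SST, -0.28, did not pass (adjusted p = 0.171), except with quantile normalization (0.0491). PYR over PV in control mice, -0.35, did not pass in limma (adjusted p = 0.112), but did with DESeq2 (0.0462) and without U10 (0.0260). PV over VIP in UCMS mice was not called in the main limma fit. It passed without U601 (adjusted p = 0.0209), U602 (0.0401) or the libraries with the fewest reads (0.0272).

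Dlgap1, which encodes the bridge between the guanylate kinases and the Shank proteins, was the 1 gene of the 9 with its highest mean in PV neurons. In UCMS mice Dlgap1 normalized counts ran from 4894 to 6345 in PV libraries (median 5617), against 3304 to 4593 in SST libraries (median 4040.3) and 2917 to 6460.1 in VIP libraries (median 4153). PYR libraries of the same mice ran from 3020.4 to 4807 (median 4555). The PV range lay wholly above the PYR and SST ranges and overlapped that of VIP. PYR was below PV (log2 fold change -0.40, SE 0.102, adjusted p = 0.00244 in limma), and PV was above SST by 0.50 (SE 0.102, adjusted p = 0.000115) and above VIP by 0.39 (SE 0.102, adjusted p = 0.00313). The last call ended with quantile normalization (adjusted p = 0.0513) and with the protein-coding share as a covariate (0.165). The first 2 held in the 11 other settings and without any 1 mouse.

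In control mice no Dlgap1 difference passed in limma. Dlgap1 ran from 3416 to 5536 in PV libraries (median 4977) in control mice, against 2388 to 5079 in SST libraries (median 3681). PV was the higher in 10 of 10 control mice, with overlapping ranges. The difference of 0.37 (SE 0.120) had an adjusted p of 0.0536 in limma. It passed without mouse U3 or U4 (adjusted p from 0.0416 to 0.0490) and under 4 of 11 other settings. PYR over PV stood at -0.11 in control mice (adjusted p = 0.736). The test of whether the UCMS effect differed between types did not pass for Dlgap1 (p = 0.309, adjusted p = 1.000), so the arms were not shown to differ in this.

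The Shank proteins form the deeper layer of the density. Shank2 gave 4 calls in each arm, with PYR and VIP neurons each above PV and SST neurons. In UCMS mice Shank2 normalized counts ran from 1716 to 3207 in PYR libraries (median 2275), against 719 to 1691 in PV libraries (median 1215) and 883 to 2121 in SST libraries (median 1364). In control mice Shank2 ran from 1939.8 to 2914 in PYR libraries (median 2233), against 714 to 2071 in PV libraries (median 1132) and 787 to 2026 in SST libraries (median 1201). The UCMS PYR and PV ranges did not overlap, and the others did. PYR was above PV by 0.94 in UCMS mice (SE 0.168, adjusted p = 2.99e-06 in limma) and by 1.01 in control mice (SE 0.202, adjusted p = 5.18e-05). It was above SST by 0.73 in UCMS mice (SE 0.162, adjusted p = 0.000469) and by 0.91 in control mice (SE 0.202, adjusted p = 0.000559). These 4 calls held in the 11 other settings and without any 1 mouse.

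VIP libraries held 1709.8 to 3738 normalized counts of Shank2 in UCMS mice (median 2052) and 804 to 3013 in control mice (median 2142). The UCMS VIP range lay wholly above that of PV. PV was below VIP in UCMS mice (log2 fold change -0.88, SE 0.168, adjusted p = 1.85e-05 in limma) and in control mice (log2 fold change -0.84, SE 0.202, adjusted p = 0.00170). SST was below VIP in UCMS mice (log2 fold change -0.67, SE 0.162, adjusted p = 0.00257) and in control mice (log2 fold change -0.74, SE 0.202, adjusted p = 0.0144). The last call ended without mouse U2, U5 or U8 (adjusted p from 0.0529 to 0.0881) and with no filter (0.0790). PYR over VIP stood at 0.06 in UCMS mice (95% confidence interval -0.26 to 0.38) and 0.17 in control mice (-0.23 to 0.57), and neither passed.

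Shank1 was highest in VIP neurons. In UCMS mice Shank1 normalized counts ran from 5133 to 7785 in PYR libraries (median 6263), 5355 to 7811 in PV libraries (median 6076) and 5011 to 7081 in SST libraries (median 6203), against 6822 to 11018 in VIP libraries (median 7389.9). In control mice Shank1 ran from 4536 to 8244 in PYR libraries (median 6534), 4149.7 to 8029 in PV libraries (median 6024) and 4363 to 7589 in SST libraries (median 5713), against 7159 to 10793 in VIP libraries (median 8022). In each pair at most 1 mouse of an arm was lower in VIP neurons, and the ranges overlapped. PYR was below VIP in UCMS mice (log2 fold change -0.31, SE 0.0813, adjusted p = 0.00628 in limma) and in control mice (log2 fold change -0.38, SE 0.0962, adjusted p = 0.00538). PV was below VIP in UCMS mice (log2 fold change -0.32, SE 0.0842, adjusted p = 0.00317) and in control mice (log2 fold change -0.49, SE 0.0962, adjusted p = 4.59e-05). SST was below VIP in UCMS mice (log2 fold change -0.34, SE 0.0813, adjusted p = 0.00225) and in control mice (log2 fold change -0.55, SE 0.0962, adjusted p = 8.79e-06). With edgeR on recovered reads the UCMS calls ended for PYR (adjusted p = 0.353), PV (0.0982) and SST (0.141), and so did the control call for PYR (0.273), which also ended with no filter (0.0675). The summed astrocyte, microglia and endothelial markers each averaged highest in VIP libraries too, and the summed oligodendrocyte markers lowest, in both arms. The part of such transcripts in the Shank1 difference was not tested.

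Shank3 had its lowest mean in PV and its highest in VIP neurons. In UCMS mice Shank3 normalized counts ran from 553 to 1657 in PV libraries (median 963), against 1119 to 2133 in VIP libraries (median 1735). In control mice Shank3 ran from 455 to 1386 in PV libraries (median 909), against 1037 to 2399.6 in VIP libraries (median 1529.8). VIP was the higher in 9 of 9 UCMS and 10 of 10 control mice, with overlapping ranges. PV was below VIP in UCMS mice (log2 fold change -0.81, SE 0.189, adjusted p = 0.000740 in limma) and in control mice (log2 fold change -0.89, SE 0.236, adjusted p = 0.00613). Both calls held in the 11 other settings and without any 1 mouse. PYR libraries averaged 1216 ± 253 in UCMS and 1254 ± 295 in control mice, and SST libraries 1291 ± 283 and 1255 ± 431 (SD), with no call in limma against any type. DESeq2 on recovered reads called Shank3 lower in PYR than in VIP neurons of UCMS mice (-0.45, adjusted p = 0.0402) and higher in PYR than in PV neurons of control mice (0.54, adjusted p = 0.0466).

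Homer1 had the highest median coefficient of variation over the groups, 37.2%, with a range of 24.1% to 46.7%. Dlg1 varied more in PV libraries of both arms and in control SST libraries. Homer1 gave type calls in UCMS mice only in PYR comparisons and none in control mice. In UCMS mice Homer1 normalized counts ran from 809 to 1753 in PYR libraries (median 1255), against 360.3 to 1349 in PV libraries (median 703), 463 to 1012 in SST libraries (median 629) and 398 to 1543 in VIP libraries (median 867). In control mice Homer1 ran from 354 to 1519 in PYR libraries (median 783), against 355 to 1285 in PV libraries (median 771), 334 to 884 in SST libraries (median 706) and 507 to 1472 in VIP libraries (median 881). The PYR median was the highest in UCMS mice but not in control mice, and the ranges overlapped throughout. In UCMS mice PYR exceeded SST by 0.87 (SE 0.230, adjusted p = 0.00532 in limma) and PV by 0.68 (SE 0.239, adjusted p = 0.0428), whereas 0.70 over VIP did not pass (adjusted p = 0.0509). The SST call held in the 11 other settings and without any 1 mouse. The PV call ended without U602, U603, U604, U607, U609 or U610 (adjusted p from 0.0548 to 0.179), with no filter (0.142) and with the protein-coding share as a covariate (0.0577). The VIP difference passed without U601, U605, U607 or U608 (adjusted p from 0.0195 to 0.0487) and under 5 of 11 other settings. The same differences in control mice were 0.40 over SST (adjusted p = 0.620), 0.11 over PV (0.918) and -0.04 over VIP (0.970). Whether these type differences themselves differed between the arms did not pass a test, given below with the UCMS effect.

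The second question was whether the scaffolds differed between UCMS and control mice. Of the 9 genes, limma called 0 in PYR neurons, where 0.0808% of 16092 genes were called (0.00621% higher and 0.0746% lower), and 0 in PV (0% of 16847), SST (0% of 17108) and VIP neurons (0% of 19451). Over the 4 types together, with 1 mean per mouse, 0 of the 9 were called, as were 0% of 17427 genes. At an unadjusted p under 0.05 in limma the count was 1 of the 9 in PYR neurons, and 0 in PV, SST and VIP neurons and in the average. Over all genes tested the same threshold was passed by 1023 in PYR, 630 in PV, 979 in SST and 1001 in VIP neurons and by 1189 in the average. edgeR and DESeq2 on recovered reads also called 0 of the 9 in each of these. Over all genes edgeR called 896 of 19451 in VIP neurons, and 0 in the other types and in the average. DESeq2 called 32 in PYR, 46 in PV, 30 in SST and 83 in VIP neurons, and 0 in the average. The median log2 fold change of the 9 genes was -0.01 in PYR, 0.05 in PV, 0.10 in SST and 0.01 in VIP neurons, against 0.10, 0.05, 0.15 and 0.17 over all genes in these types. The medians over all genes depended on the setting. With the number of genes detected per library as a covariate they were -0.002, 0.02, 0.04 and 0.005.

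**Figure D3:**
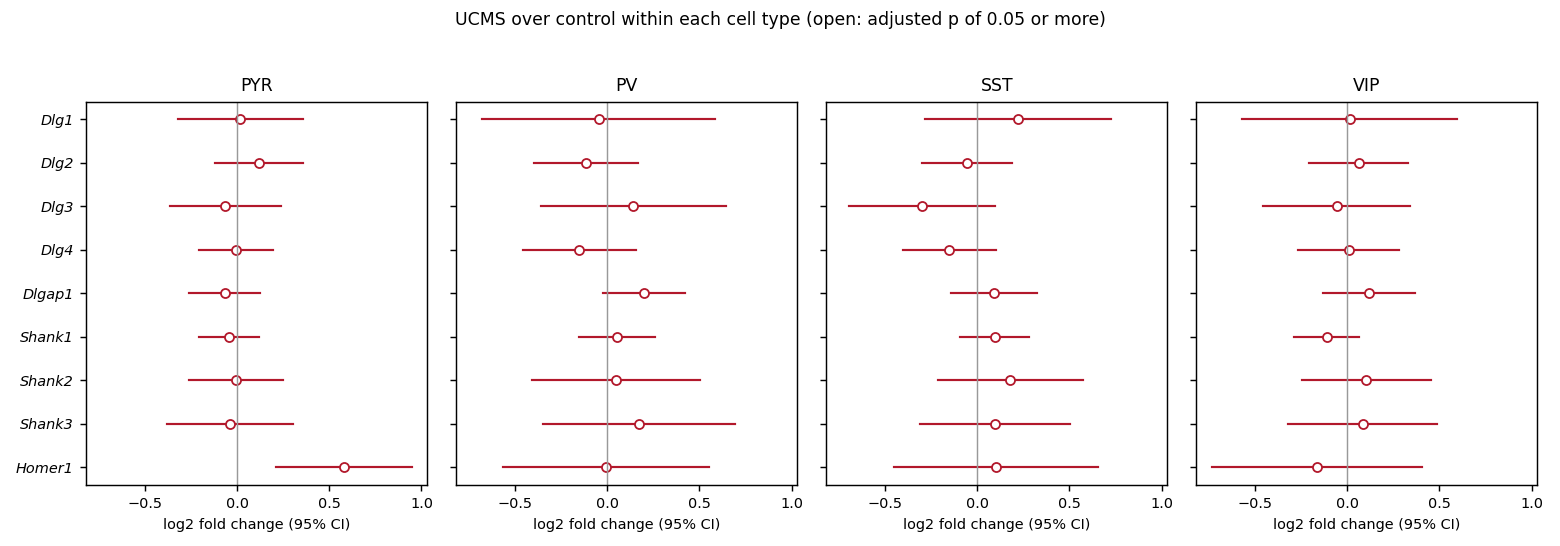
Log2 fold changes, UCMS over control, of the 9 genes in each neuron type with 95% confidence intervals; no value has an adjusted p under 0.05. Homer1 in PYR neurons, at 0.58, is the 1 value whose interval lies wholly on one side of 0.

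The largest difference was that of Homer1 in PYR neurons. Homer1 ran from 809 to 1753 normalized counts in UCMS PYR libraries (median 1255) and from 354 to 1519 in control PYR libraries (median 783). All 10 UCMS libraries lay above the control median, 3 of them above every control, and 6 controls lay below every UCMS library. The means were 1295 ± 313 in UCMS and 912 ± 374 in control mice (SD, n = 10 each), and the log2 fold change was 0.58 (SE 0.188, 95% confidence interval 0.21 to 0.95). In limma its p was 0.00201 before and 0.634 after adjustment over 16092 genes, so it did not pass. The value lay between 0.44 and 0.67 when any 1 library was left out (adjusted p from 0.370 to 0.769), and between 0.50 and 0.75 under the 12 other settings (adjusted p from 0.458 to 1). Of these settings, the one without the libraries with the fewest reads dropped no PYR library and repeated the main fit. The share of reads in protein-coding genes was 64.2% ± 2.26 in UCMS and 58.7% ± 3.90 in control PYR libraries. With that share as a covariate the Homer1 value was 0.75 (adjusted p = 0.942). In the other types Homer1 differed by -0.01 in PV, 0.10 in SST and -0.16 in VIP neurons. In SST neurons 4 of the 10 UCMS libraries lay above every control, while 6 lay below the control median. The test of whether the UCMS effect differed between types gave p = 0.223 for Homer1 (adjusted p = 1.000), so the effect was not shown to be particular to PYR neurons.

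The next largest values also failed the test. Dlg3 in SST neurons ran from 906 to 1684 normalized counts in UCMS libraries (median 1081) and from 1183 to 1716 in control libraries (median 1473). Of the 10 UCMS libraries, 8 lay below the control median, with overlapping ranges. The log2 fold change was -0.30 (95% confidence interval -0.69 to 0.10, adjusted p = 0.888 in limma). Dlgap1 in PV neurons ran from 4894 to 6345 in UCMS libraries (median 5617) and from 3416 to 5536 in control libraries (median 4977). Of the 9 UCMS libraries, 8 lay above the control median and 5 above every control. The log2 fold change was 0.20 (95% confidence interval -0.02 to 0.42, adjusted p = 0.982 in limma). Dlg1 in SST neurons stood at 0.22 (95% confidence interval -0.29 to 0.73).

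The intervals give the precision of each difference, gene by gene, without adjustment and with the authors' size factors taken as given. In the average over types Shank1 had a 95% confidence interval of -0.10 to 0.10 on the log2 scale, Dlg2 -0.15 to 0.13, Dlg4 -0.21 to 0.06 and Dlgap1 -0.03 to 0.20. The wider intervals were those of Shank2 (-0.11 to 0.28), Shank3 (-0.15 to 0.29), Dlg3 (-0.28 to 0.14), Dlg1 (-0.21 to 0.33) and Homer1 (-0.14 to 0.41). Within a single type they were wider still, such as -0.68 to 0.58 for Dlg1 in PV neurons. The test of a difference between types gave unadjusted p from 0.223 to 0.928 for the 9 genes, and limma called 0% of 17427 genes there.

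Levels of different genes can be compared only per length, here as normalized counts per kilobase of the union of a gene's exons. Shank1 had the highest level of the 9 in every group, at 599.5 ± 82.8 per kilobase in UCMS and 622 ± 108 in control PYR libraries, and 744 ± 116 and 804 ± 120.0 in VIP libraries (SD, n = 10). By this length Dlg1 and Homer1 had the lowest levels in every group, from 55.1 to 119 per kilobase on average. With the longest annotated transcript as the length, Dlgap1 ranked above Shank1 in PV neurons, at 771 ± 67.7 against 635 ± 89.8 per kilobase in UCMS mice and 675 ± 92.4 against 617 ± 119.7 in control mice. Shank1 ranked first in the other types by either length. The lowest ranks also moved with the length. By the longest transcript Shank3 ranked last in UCMS PYR libraries, at 165 ± 34.3 per kilobase, with Dlg1 at 207 ± 42.9 and Homer1 at 227 ± 54.7, and it ranked below Dlg1 in control PYR libraries and below Homer1 in PV libraries of both arms.

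**Figure D4:**
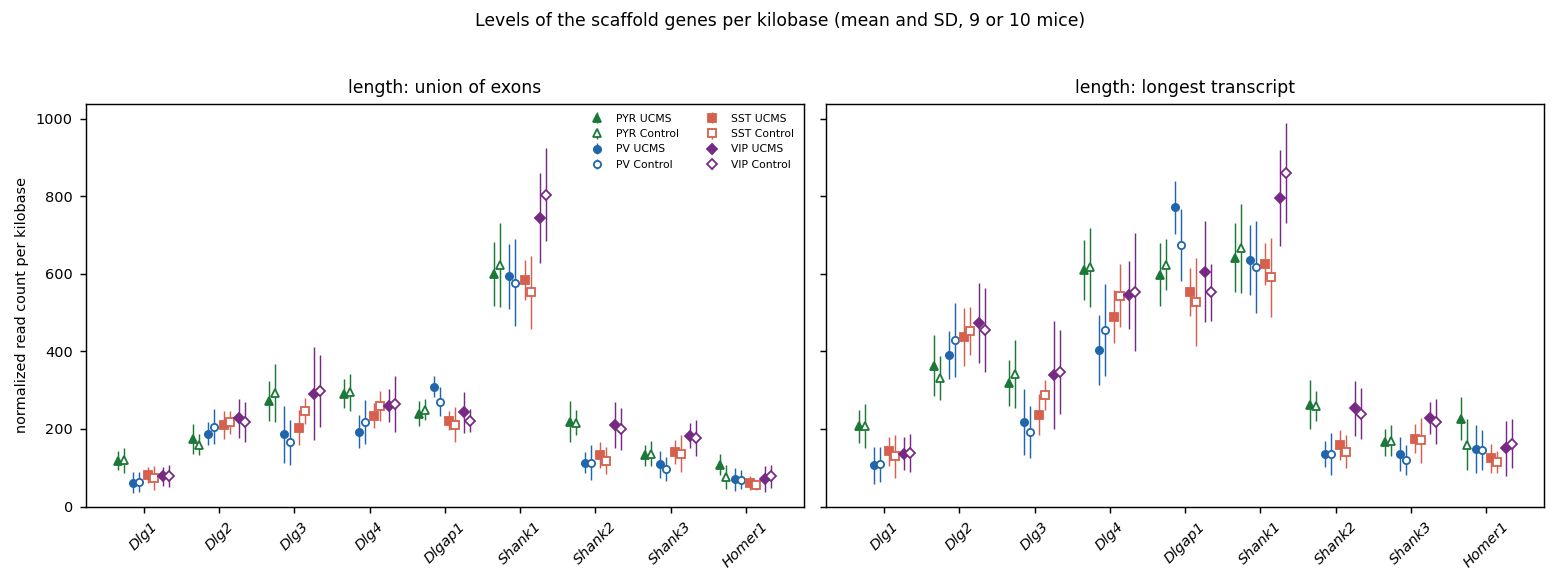
Normalized read counts per kilobase of the 9 genes (mean and SD of 9 or 10 mice) by neuron type in UCMS and control mice, with the union of exons or the longest transcript as the length. Shank1 is highest in every type by the union of exons, and Dlgap1 stands above it in PV neurons by the longest transcript.

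Within the Shank family the shares of the summed level per kilobase moved with type. Shank1 made up 63.1% ± 4.77 in UCMS and 63.5% ± 4.23 in control PYR libraries, and 72.8% ± 5.15 in UCMS and 73.4% ± 5.43 in control PV libraries (SD). Shank2 made up 22.8% ± 3.60 in UCMS and 22.3% ± 3.31 in control PYR libraries, and 13.9% ± 3.22 and 14.3% ± 4.14 in PV libraries. Within the Dlg family, Dlg2 made up 20.3% ± 4.23 in UCMS and 18.6% ± 3.56 in control PYR libraries, and 30.5% ± 6.17 and 31.5% ± 6.30 in PV libraries. These shares follow from the levels above and were not tested.

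The genes differed in how evenly they were measured. The coefficient of variation between the libraries of a group, 1 per mouse, had a median of 22.4% over the 72 combinations of gene and group. Differences between mice and between captures were not separated in it. Its median over the 8 groups was lowest for Dlgap1 (13.5%) and Shank1 (15.3%) and highest for Homer1 (37.2%) and Dlg1 (33.0%). Counting error, taken at the mean reads of each group, was at most 4.08%. It was larger in single libraries with few reads, of which the lowest held 101. With the group means removed, the 36 pairs of genes had correlations over the 79 libraries of -0.33 to 0.35, with a median of 0.05. Libraries high in 1 scaffold were thus not in general high in the others. Libraries share depth and size factors, and these correlations are descriptions.

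Other genes of the excitatory postsynaptic density, a list of 28 of which 27 passed the filter in these comparisons, also differed by type in both directions. For PYR over PV, 13 were higher and 6 lower in UCMS mice (all genes 6.58% higher and 4.71% lower). In control mice 8 were higher and 6 lower (all genes 4.57% higher and 3.74% lower). The largest called differences in control mice were those of Baiap2 (IRSp53, a link to actin), Dynll1 (a dynein light chain), Homer2 and Grip2 (a PDZ protein that binds AMPA receptors). Baiap2 stood at 2.21 in UCMS and 2.60 in control mice, and Dynll1 at 1.33 and 1.94. Homer2 stood at 1.62 in UCMS and 1.82 in control mice, and Grip2 at -2.17 and -1.74. For PV over VIP, 4 were higher and 10 lower in UCMS mice (all genes 4.48% higher and 6.50% lower). In control mice 4 were higher and 8 lower (all genes 3.27% higher and 3.55% lower). With a filter at a mean of 50, 1966 of 10987 genes were called for PYR over PV in UCMS mice and 1446 of 11001 in control mice. For PV over VIP these counts were 1898 and 1206. Of 7 scaffolds of inhibitory synapses, the 1 called for PYR over PV in UCMS mice was Iqsec3, at -0.91. In control mice 1 was called higher and 1 lower, the lower being Iqsec3 at -0.68. For UCMS against control limma called 0 genes of either list in any type, in the average or in the difference between types; at an unadjusted p under 0.05 the excitatory list had 3 in VIP neurons, 1 in the average and 0 elsewhere, and the inhibitory list 1 in VIP neurons and 0 elsewhere.

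Genes with the most similar pattern were found by Pearson's r of log2(normalized count + 4) over the 79 libraries, among 8233 protein-coding genes with a mean of at least 100. The libraries share type, depth and size factors, and the values are descriptions. Shank2 was nearest to Nptxr (r = 0.74), which encodes a neuronal pentraxin receptor, and Dlg4 to Fam212b (0.70). Dlg1 was nearest to Celsr2 (0.65), Dlg3 to Hivep3 (0.63) and Shank1 to Tnrc18 (0.63), with Vip itself next (0.62). Shank3 was nearest to Cacng4 (0.58), which encodes an auxiliary protein of AMPA receptors, Dlgap1 to Atp5b (0.57) and Dlg2 to Vstm2a (0.51). Homer1 had the lowest r with its nearest gene, Dusp7 (0.48).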

How the data were processed

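RNA of 130 laser-captured neurons per library was made into stranded total RNA libraries with a SMARTer Pico kit, per the labels' protocols. The submitters' processing notes name HISAT2, SAMtools 1.3, DESeq2 and the builds GRCm38 and mm10; the counter is not given in the sources used here, nor are its annotation and strand setting. The deposited signal values are read counts per gene after division by a size factor for each library, a step of the authors. Whole reads were recovered from them: within a tolerance of 0.001, 100% of the values in each of the 79 libraries were whole multiples of what 1 read was worth. Counting error is that of reads without molecular identifiers.

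The main test was limma 3.58.1 (robust trend) in R 4.3.3 on log2(normalized count + 4), for genes with a mean of at least 10 in the libraries compared, with Benjamini-Hochberg adjustment over all genes tested. UCMS and control mice were compared within each type, in 1 mean per mouse over the types, and, for a difference between types, in an F test with the mouse as a block. Pairs of types were compared within the 39 UCMS and the 40 control libraries with the mouse as a block, since a mouse number marks 1 animal. Deviations of libraries of the same mouse had a median correlation of 0.00773 over 117 pairs, with 0 above 0.1. edgeR 4.0.16 and DESeq2 1.42.0 on recovered reads were alternatives, with other pseudocounts (1 and 16), filters, scalings, covariates and libraries or mice left out; leaving out single mice or libraries was added after seeing the data. Tests were checked on simulated data. Python 3.11.15, NumPy 2.4.6, pandas 2.3.3 and matplotlib 3.10.9 were used for the rest.

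The members and lists were chosen with earlier results of these data known. All 9 members are named in each comparison. Of the other lists, up to 4 called genes with the largest absolute fold change are named, with 1 result not reported here, and of genes with a similar pattern those with the highest Pearson's r. Of the table's identifiers, 38636 were in GENCODE M21 and 243 were not.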

Additional observations from a re-analysis of the deposited data

Results flagged for a closer look

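In 7 of 72 combinations of gene and group, 1 library stood far from the rest, with a gap to its nearest neighbour that took up more of the group's range than Dixon's 95% critical value. Chance alone gives about 1 in 20 such groups. Dlg1 stood high in PV neurons of UCMS mouse U601 (1320.2 normalized counts, with the next at 816) and of control mouse U3 (1334, with the next at 826). Dlg3 stood high in VIP neurons of UCMS mouse U601 (3622, next 1810.0) and of control mouse U6 (3046, next 2165), the last in 1 of the 4 libraries with the fewest reads. Dlg3 stood low in PYR neurons of control mouse U6 (694, with the next at 1614). Shank1 stood high in VIP neurons of UCMS mouse U601 (11018, next 8512), and Shank3 in PYR neurons of control mouse U9 (1934, next 1426).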

How the results depend on the processing

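No called difference changed sign under any alternative. In the type pairs the count of calls (19 in UCMS and 14 in control mice) stayed within 1.5 times under other settings, except that with no filter on low values 8 were called in control mice, where more genes were tested. Leaving out 1 mouse gave 17 to 20 calls in UCMS mice and 9 to 15 in control mice, with 9 without control mouse U2; the cause was not tested. Without the replicate block, that is, with the mouse left out of the fit, 19 were called in UCMS mice and 13 in control mice, and Dlg2 in PYR over VIP neurons of control mice (adjusted p = 0.0539) lost its call. With 8 groups in 1 fit and a random replicate block, and in each other alternative, 0 of the 9 genes were called for UCMS against control. Values that passed no test did change sign: 13 of 108 in PYR, 8 of 108 in PV, 1 of 108 in SST and 9 of 108 in VIP neurons for UCMS against control, and 13 of 594 in each arm for the type pairs. Over all genes, limma called 13 for UCMS against control in PYR, 0 in PV, 0 in SST and 0 in VIP neurons, edgeR 0, 0, 0 and 896, and DESeq2 32, 46, 30 and 83. With edgeR's scaling the median log2 fold change of all genes in these types was 0.02, -0.01, 0.02 and 0.04, against 0.10, 0.05, 0.15 and 0.17 in limma.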
